A study of Mus musculus with 8 samples.

Results

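The genes described here are 10 genes of oxidative stress defence in the ischemic mouse brain: *Hmox1*, *Nqo1*, *Gclc*, *Gclm*, *Srxn1*, *Txnrd1*, *Sod2*, *Mt1*, *Mt2* and *Mt3*. They were taken by name, as all array probes whose gene name equals one of the 10, which gave 13 of the 41174 probes. *Srxn1* has 3 probes, *Mt1* has 2 and each other gene has 1. The brightest probe stands for a gene unless another is named. All 13 probes were well above background in both channels of all 8 arrays, and none was saturated.

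The mice were male C57BL/6J, 8 to 12 weeks of age by the labels, while the methods of the study give a single age within that range. They underwent permanent middle cerebral artery occlusion (PMCAO), in which one artery of the brain is closed for good, or a sham operation, and received 1 pmol of the neuropeptide PACAP38 in 1 µL, or saline, into the cerebral ventricle. Brains were taken at 6 h or 24 h, so there were 8 groups: sham with saline, sham with PACAP38, PMCAO with saline and PMCAO with PACAP38 at each time. Each group was a single pool of RNA from 3 mice (300 ng per mouse), made from the ipsilateral hemisphere without olfactory bulb and cerebellum. PMCAO mice were chosen by their neurological grade, so mice without a deficit and those most affected were not included. On each two-colour array, PACAP38 and saline RNA of one surgery and time were hybridized together in the dyes Cy3 and Cy5. The second array of each comparison held the same RNA with the dyes exchanged, so the 2 arrays (replicates 1 and 2) measure technical error, and there was 1 pool and no error between mice for any group.

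Cells meet an oxidative load with 2 linked systems. Nrf2, a transcription factor that is held down by Keap1 until electrophiles or peroxides release it, acts at antioxidant response elements of genes for heme breakdown, glutathione synthesis and the thioredoxin system. Metallothioneins are small cysteine-rich proteins that bind zinc and copper and scavenge radicals, and MTF-1 drives the genes of *Mt1* and *Mt2* at metal response elements. In brain, *Mt1* and *Mt2* are made mainly by glia and vessels, whereas *Mt3* is a brain form with strong neuronal expression that responds little to metals.

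Promoter sequence was at hand for 8 of the 10 genes (RefSeq, GRCm38.p6, 250 bases before to 50 after a start); *Hmox1* and *Gclc* are named only. The antioxidant response element core TGACNNNGC, read on both strands, was present in 12.4% of 32851 promoters of that length, and in *Mt2*, *Gclm*, *Srxn1* and 1 of the starts of *Txnrd1*. The metal response element core, TGCACNC or TGCGCNC, was present in 25.7% of promoters. *Mt2* held 4 such matches, as 0.517% of promoters did or more, *Mt1* and *Gclm* held 3 each, and *Mt3* and *Srxn1* held 1 each. A metal core of *Gclm* overlaps its antioxidant core. The windows below show an antioxidant and a metal core of *Mt2*, a metal core of *Mt1*, and the antioxidant cores of *Gclm* and *Txnrd1*. The core is in capitals and the rest in lower case, in the direction of the gene. With saline at 24 h, PMCAO over sham passed 1.5-fold for *Mt1* and *Mt2* and not for *Gclm* and *Txnrd1*. It also passed for *Srxn1*, whose antioxidant core is not printed, and for *Nqo1*, which had no such core in its window. A link of cores to ratios was not tested. The 4 genes printed lie on the plus strand.
Mt2, antioxidant core, chr8:94172529-94172558: aaagggggtgTGACTCAGCgcggggggtgg
Mt2, metal core, chr8:94172479-94172508: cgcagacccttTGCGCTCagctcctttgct
Mt1, metal core, chr8:94179055-94179084: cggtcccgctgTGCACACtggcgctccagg
Gclm, antioxidant core on the minus strand, chr3:122245413-122245442: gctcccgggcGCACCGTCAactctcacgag
Txnrd1, antioxidant core on the minus strand, chr10:82859104-82859133: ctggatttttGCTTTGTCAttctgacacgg
*Mt1* and *Mt2* lie close together on chromosome 8 and both carry metal cores. A match describes the letters in this window and is not a measured binding site.

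One array has to be named before the values. Replicate 2 of sham at 6 h stood apart from the other 3 arrays of its slide: 43.1% of its probes lay more than 1 log2 unit from their median, against 3.39 to 6.51% for the other 7 arrays. Outlier spots left *Gclc*, *Srxn1* and *Txnrd1* without a value on it. Every 6 h value of PMCAO over sham from replicate 2 rests on it and is given apart. The sham and PMCAO arrays of one time were on the same slide, but time coincided with slide, scanner and software version, so effects of time and of these cannot be told apart. The dye-swapped ratios of a comparison correlated at -0.417 to 0.053 across probes. Markers of neurons, astrocytes and oligodendrocytes were above background for 8 of 8 genes in each list.

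**Figure D1:**
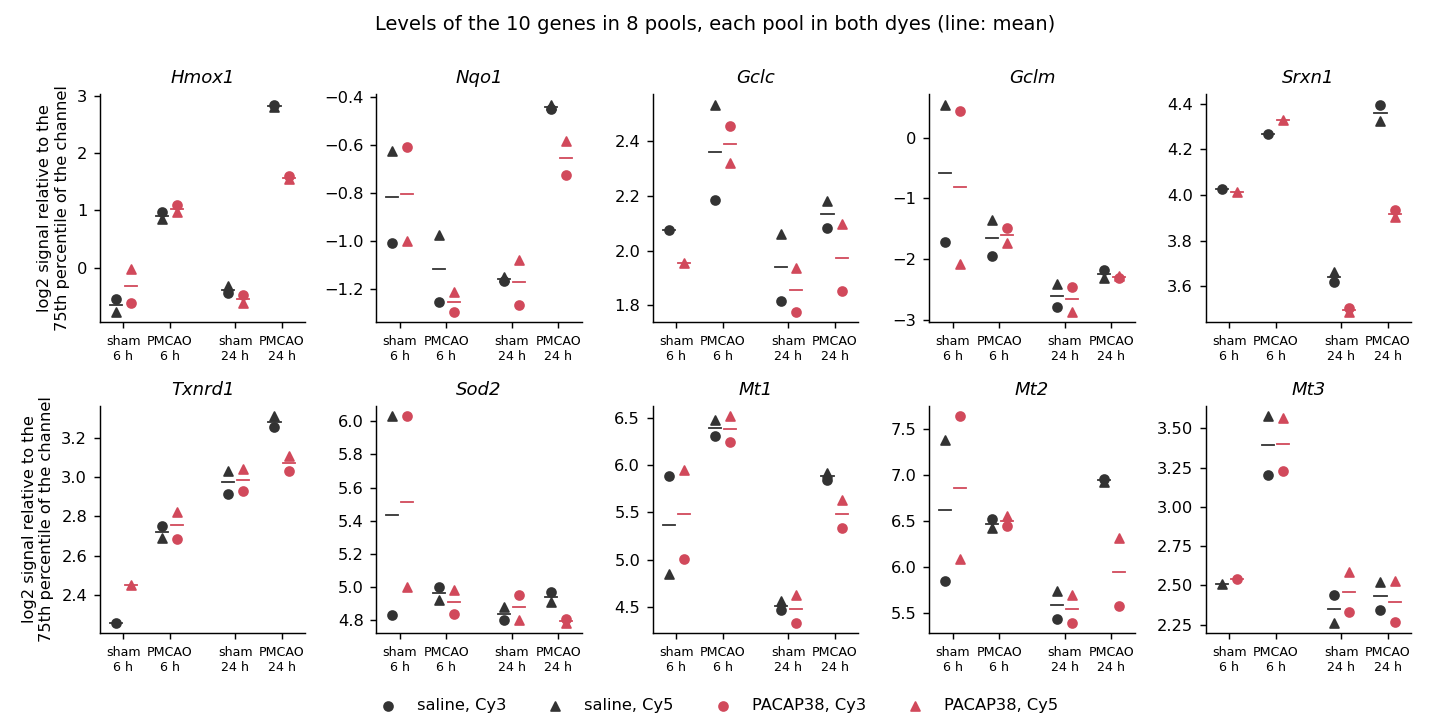
Level of each gene (y axis: log2 signal relative to the 75th percentile of its channel) in the 8 pools, each measured in Cy3 (circles) and Cy5 (triangles), with the mean as a line; black is saline and red is PACAP38. *Hmox1* at 24 h lies at 2.80 to 2.84 in PMCAO with saline, at 1.55 to 1.59 in PMCAO with PACAP38 and below 0 in both sham pools. The 2 values of a pool come from different arrays, and the sham pools of 6 h show the widest gaps between them for *Gclm*, *Sod2*, *Mt2* and *Mt1*.

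At 24 h, PMCAO was accompanied by higher *Hmox1*, *Mt1*, *Mt2*, *Nqo1* and *Srxn1* in the saline pools, with *Hmox1* far ahead of the rest. These 5 of 10 genes passed 1.5-fold in the saline pair and none was below 0.75-fold, the fold limits used in the study. Across all probes 9.56% passed 1.5-fold, and the median log2 ratio was 0.54 over the 10 genes against 0.02 over all probes. In 9 of the 10 genes the ratio was above 1 on both array sets, where 41.7% of probes were, and 13.3% of probes were below 0.75-fold. In the PACAP38 pair, 2 of 10 genes passed 1.5-fold, *Hmox1* and *Mt1*, where 6.39% of all probes did and 8.19% were below 0.75-fold, and the median over the 10 genes was 0.38.

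*Hmox1* encodes heme oxygenase 1, the inducible enzyme that opens the heme ring to biliverdin, iron and carbon monoxide. Its log2 level (relative to the 75th percentile of the channel) at 24 h was -0.44 and -0.32 in sham with saline, -0.61 and -0.47 in sham with PACAP38, 2.84 and 2.80 in PMCAO with saline, and 1.55 and 1.59 in PMCAO with PACAP38. The sham and PMCAO pools did not overlap, nor did the 2 PMCAO pools, and the dyes of a pool differed by far less than the pools. PMCAO over sham was 9.22-fold with saline (9.75-fold and 8.72-fold on the 2 array sets) and 4.31-fold with PACAP38 (4.47-fold and 4.17-fold).

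*Mt1* rises with zinc, glucocorticoids and cytokines and is probed by 10 spots on each array. Its PMCAO over sham ratio at 24 h was 2.58-fold with saline (2.60-fold and 2.56-fold) and 2.00-fold with PACAP38 (2.00-fold on both). The other *Mt1* probe gave larger ratios, 4.14-fold with saline and 2.27-fold with PACAP38. *Mt2*, its partner gene, was 2.56-fold with saline (2.87-fold and 2.28-fold) and 1.32-fold with PACAP38 (1.53-fold and 1.13-fold), so its 2 pairs differed by more than the 2 dye orders of either pair. *Mt3*, the brain form, was 1.06-fold with saline and 0.958-fold with PACAP38, within the spread of the arrays (0.936-fold to 1.20-fold). The files hold no probe sequences, and signal shared among the metallothionein probes was not tested.

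Among the Nrf2-driven enzymes, *Nqo1*, a quinone reductase, was 1.64-fold with saline (1.64-fold on both array sets) and 1.43-fold with PACAP38. *Srxn1*, the sulfiredoxin that restores over-oxidized peroxiredoxins, was 1.65-fold with saline and 1.34-fold with PACAP38. Its 2 dimmer probes gave 2.31-fold and 2.01-fold with saline and 1.76-fold and 1.49-fold with PACAP38, so all 3 probes were higher after PMCAO and higher in the saline pair. The remaining enzymes moved little. *Txnrd1*, the cytosolic thioredoxin reductase, was 1.24-fold and 1.06-fold, and *Gclc*, the catalytic subunit of the first step of glutathione synthesis, was 1.14-fold and 1.08-fold. *Gclm*, the modifier subunit of the same enzyme, was 1.28-fold and 1.29-fold, but its 2 array sets disagreed (1.52-fold and 1.08-fold with saline). *Sod2*, the manganese superoxide dismutase of mitochondria, was 1.07-fold with saline and 0.945-fold with PACAP38.

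**Figure D2:**
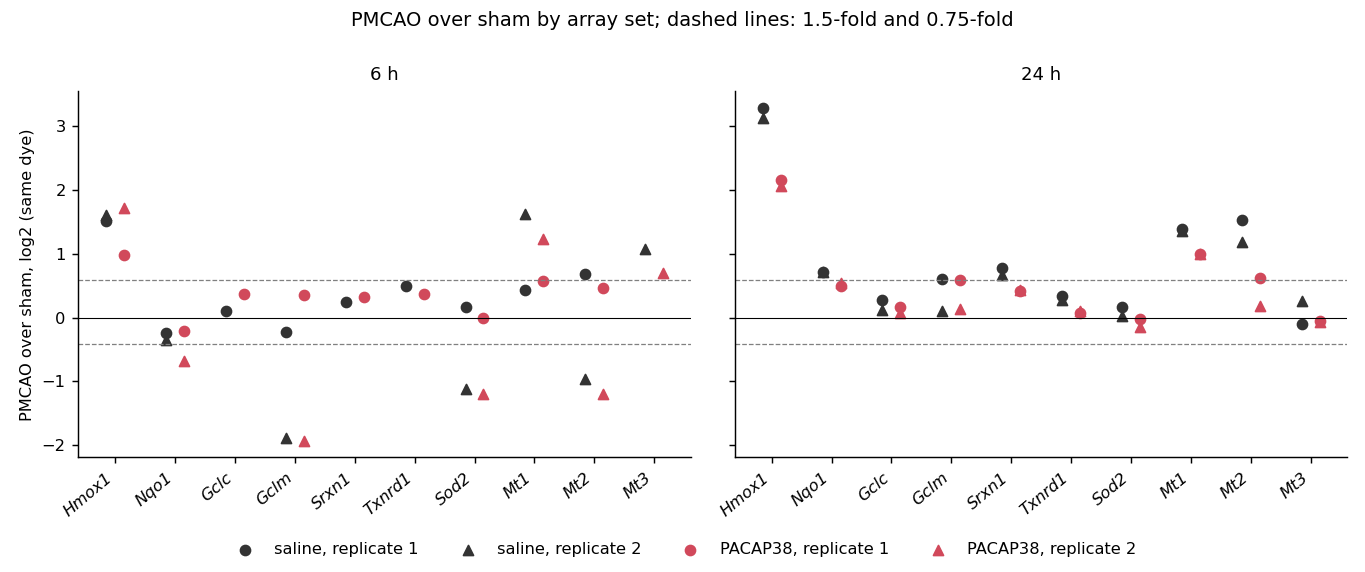
PMCAO over sham in the same dye (y axis, log2) for each gene at 6 h and 24 h, in the saline pair (black) and the PACAP38 pair (red), with replicate 1 as circles and replicate 2 as triangles. At 24 h the 2 array sets lie close together for *Hmox1* and *Mt1*, while at 6 h replicate 2, which holds the array that stood apart, falls on the other side of 0 for *Mt2*, and for *Gclm* and *Sod2* in 1 pair each.

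At 6 h, *Hmox1* was higher after PMCAO in both pairs and on both array sets. Its log2 levels in the sham pools were -0.54 and -0.77 with saline and -0.02 and -0.62 with PACAP38, and in the PMCAO pools 0.97 and 0.85 with saline and 0.96 and 1.09 with PACAP38. The surgeries did not overlap, and the PMCAO pools of the 2 treatments did. The ratio was 2.84-fold (saline) and 1.98-fold (PACAP38) on replicate 1, and 3.06-fold and 3.27-fold on replicate 2.

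At 6 h 6 of the 10 genes had a value on both array sets. By the mean of both, 2 of the 6 were above 1.5-fold and 2 below 0.75-fold in the saline pair, where 19.5% and 34.9% of probes with both were, and 2 and 3 in the PACAP38 pair, where 17% and 30.6% were. Apart from *Hmox1*, the genes past a limit by their brightest probe differed between the array sets. On replicate 1 alone, 2 of the 9 genes with a value passed 1.5-fold in the saline pair, *Hmox1* and *Mt2* (1.60-fold), where 17.2% of all probes did, and 0 were below 0.75-fold, where 16.9% were. In the PACAP38 pair 1 gene passed, *Hmox1*, where 17.9% of all probes did, and 0 were below 0.75-fold, where 10.2% were. *Mt1* was 1.34-fold and 1.49-fold there, its other probe 2.10-fold and 2.79-fold, and *Mt2* in the PACAP38 pair 1.39-fold. On replicate 2, *Mt2* was 0.511-fold and 0.435-fold, *Gclm* 0.270-fold and 0.263-fold and *Sod2* 0.462-fold and 0.436-fold, so 3 genes in the saline pair and 4 in the PACAP38 pair, *Nqo1* with them, were below 0.75-fold, where 50.7% and 45.2% of all probes were. Above 1.5-fold were 3 genes in each pair, *Hmox1*, *Mt1* and *Mt3*, where 22% and 20.8% of probes were. *Mt1* was 3.08-fold and 2.35-fold on replicate 2, and its other probe 1.86-fold and 1.78-fold. Both *Mt1* probes were thus above 1 on both array sets in both pairs. *Mt3* had a value at 6 h only on replicate 2 (2.10-fold and 1.62-fold). *Nqo1* was below 1 in all 4 values, from 0.863-fold to 0.621-fold.

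Across pools, limma's moderated test was run on the 4 pool pairs (saline and PACAP38 at 6 h and 24 h), with p-values adjusted over 40508 probes by the Benjamini-Hochberg method. With 1 pool per group, the p-values measure only the spread between these pool pairs. The pairs differ in treatment and time, so both differences count as spread in the mean of 4. In the tests by time, the treatment difference does. The mean of the 4 pairs passed at 0.05 for 0 of the 10 genes and for 0% of probes in either direction, while 3 of the 10 genes and 22.0% of probes had an unadjusted p under 0.05. *Hmox1* was higher by 2.06 ± 0.33 (log2, SE, 4 of 4 pairs, limma adjusted p = 0.122) and *Mt1* by 1.07 ± 0.13 (4 of 4 pairs, limma adjusted p = 0.106). A further fit, the replicate block, counts both arrays of a pool pair, with the pair as block and the replicate number as covariate. In it *Hmox1* and *Mt1* passed (limma adjusted p = 0.0143 and 0.0181). These p-values lean on technical replicates, as both array sets of a pool pair hold the same RNA. Nor does the fit model that the saline and PACAP38 pairs of one time share arrays. That fit tests 6 of the 10 genes and passes 1.27% of probes upward and 0.36% downward. *Srxn1*, the third of these genes, was higher by 0.43 ± 0.13 (4 of 4 pairs, limma adjusted p = 0.188).

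At 24 h the same method passed *Hmox1* (2.66 ± 0.28, adjusted p = 0.0332) and *Mt1* (1.19 ± 0.14, adjusted p = 0.0368), so 2 of 10 genes, where 1.47% of probes passed upward and 0.63% downward. Both calls were lost without the 6 h array that stood apart (limma adjusted p = 0.123 and 0.118). Without it limma passed 0 of 9 genes, and 0.102% and 0.0522% of probes upward and downward. At an unadjusted p under 0.05 were 5 of 9 genes and 15.03% of probes. No 24 h value uses that array, but the fit takes a common spread from both times. The saline and PACAP38 pairs of one time come from the same 4 arrays, so their shared error is not counted as spread, which makes these p-values too small. With Cy3 channels or Cy5 channels only, the pairs share no array, and limma passed 0 of 6 genes at 24 h. In either dye 2 of 6 had an unadjusted p under 0.05, where 4.07% (Cy3) and 2.90% (Cy5) of probes did and 0% passed. Those fits also use fewer arrays for each pool. At 6 h they set a pair with the array that stood apart against a pair without it. The loss of the calls therefore does not show the effect of sharing alone. *Mt2* was higher by 0.88 ± 0.25 (limma adjusted p = 0.164), and *Nqo1* by 0.62 ± 0.12 (limma adjusted p = 0.0872).

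At 6 h limma passed 4 of 10 genes upward (*Hmox1*, *Mt1*, *Mt3*, *Txnrd1*) and 2 downward (*Gclm*, *Sod2*), where 16.7% of all probes passed upward and 25.8% downward. Without the array that stood apart, 0 of 9 genes passed, where 0.00746% of probes passed upward and 0% downward, and 3 of the 9 had an unadjusted p under 0.05, as 26.6% of probes did. *Gclm* and *Sod2* then changed sign, from -0.92 to 0.06 and from -0.54 to 0.08 (log2). The 24 h minus 6 h difference passed for *Gclm* and *Nqo1* upward and *Mt3* downward, beside 16.2% and 8.86% of probes. Without that array it passed for 0 of 9 genes and 0% of probes, and 3 of the 9 had an unadjusted p under 0.05, as 17.4% of probes did.

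PACAP38 over saline separated the PMCAO pools of 24 h from the other 3 comparisons. There, 3 of 10 genes were below the 0.75-fold limit, *Hmox1*, *Mt2* and *Srxn1*, where 8.18% of all probes were, and 0 were above 1.5-fold, where 2.99% were. The median log2 ratio over the 10 genes was -0.20, against 0.00 over all probes. Of the 10, 7 were below 1 on both arrays, where 17.6% of all probes were. In sham at 6 h, PMCAO at 6 h and sham at 24 h, 0 of 10 genes passed a fold limit in either direction (at 6 h, 4 sham ratios and 1 PMCAO ratio come from 1 array), where 3.98% and 7.48%, 5.41% and 6.90%, and 1.75% and 3.87% of probes passed upward and downward. The comparison rests on 1 pool per group and has no test.

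*Hmox1* in PMCAO at 24 h was 0.425-fold with PACAP38 (0.411-fold and 0.438-fold on the 2 arrays), while in sham at 24 h it was 0.898-fold (0.886-fold and 0.910-fold). At 6 h it was 1.08-fold in PMCAO (0.990-fold and 1.18-fold) and 1.26-fold in sham (1.43-fold and 1.11-fold). The 24 h PMCAO pair was the one in which both arrays lay beyond a fold limit. *Mt2* was 0.504-fold there, but its arrays lay far apart (0.643-fold and 0.395-fold), and in sham at 24 h they also differed by dye order (1.19-fold and 0.790-fold).

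*Srxn1* in PMCAO at 24 h was 0.743-fold (0.714-fold and 0.772-fold), just past the limit, and its dimmer probes were 0.674-fold and 0.669-fold. *Mt1* was 0.764-fold (0.866-fold and 0.675-fold) by its brightest probe, just short of the limit, and 0.568-fold (0.561-fold and 0.575-fold) by the other. The 10 spots of the brightest *Mt1* probe ranged from -0.24 to -0.17 (log2) on one array and from -0.60 to -0.52 on the other, so the gap between the arrays exceeded the spread of the spots. The other 6 genes lay between 0.871-fold (*Txnrd1*) and 0.985-fold (*Mt3*), and *Gclc*, *Gclm* and *Mt3* changed sides between the arrays.

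Over the 4 comparisons limma passed 0 of 10 genes for the mean of PACAP38 over saline and 0 of 10 for PMCAO minus sham, and 0% of 40668 probes in either. At an unadjusted p under 0.05 there were 0 and 1 of the 10 genes, where 5.01% and 6.14% of probes were, the 1 being *Nqo1* (PMCAO minus sham -0.17 ± 0.05, limma adjusted p = 0.79). *Hmox1* differed by -0.65 ± 0.61 between PMCAO and sham (limma adjusted p = 0.792). The averaging joins a 24 h pair at -1.24 with a 6 h pair at 0.11.

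**Figure D3:**
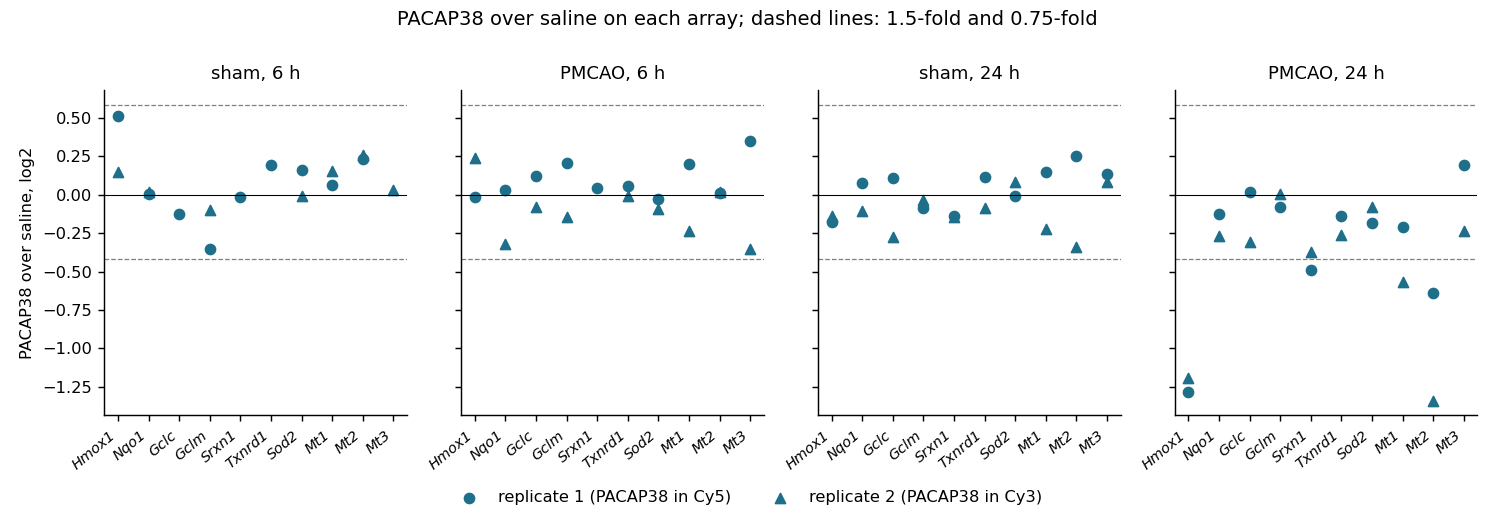
PACAP38 over saline (y axis, log2) for each gene on replicate 1 (circles, PACAP38 in Cy5) and replicate 2 (triangles, PACAP38 in Cy3) of each comparison, with dashed lines at 1.5-fold and 0.75-fold. In PMCAO at 24 h *Hmox1* lies at -1.28 and -1.19 and *Mt2* at -0.64 and -1.34, while in the other 3 comparisons every value of the brightest probes lies between the lines.

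Marker genes of some other cells and tissues moved with the same contrast. The summed signal of 8 neutrophil markers (the 75th percentile of a channel taken as 1) was 50.01 in PMCAO with saline at 24 h, 5.97 in PMCAO with PACAP38, and 0.785 and 1.16 in the sham pools. *S100a8* and *S100a9* were above background in all 4 pools, the granule genes *Camp* and *Elane* were not well above background in any pool, and *Ngp* was so only in PMCAO with saline. The summed signal of 8 olfactory bulb markers was 4.05 in PMCAO with saline and 1.22, 1.44 and 1.65 in the other 24 h pools, although the bulb was to be removed, so the pools differ in these markers too. Of the olfactory bulb markers 7 of the 7 above background were below 0.75-fold for PACAP38 in PMCAO at 24 h, as did 5 of 6 neutrophil markers. Their part in the *Hmox1*, *Mt2* and *Srxn1* values was not tested. In the PMCAO pools with saline and PACAP38, oligodendrocyte markers summed to 199 and 146, with 3 of 8 below 0.75-fold, and endothelial markers to 28.5 and 21.0, with 4 of 8 below 0.75-fold and 1 above 1.5-fold. Red blood cell markers summed to 76.2 and 59.7, astrocyte markers to 124 and 117, and neuron markers to 128 and 131. The part of these lists in the values was not tested either. In a pooled hemisphere, fewer cells of a type and less RNA per cell cannot be told apart.

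**Figure D4:**
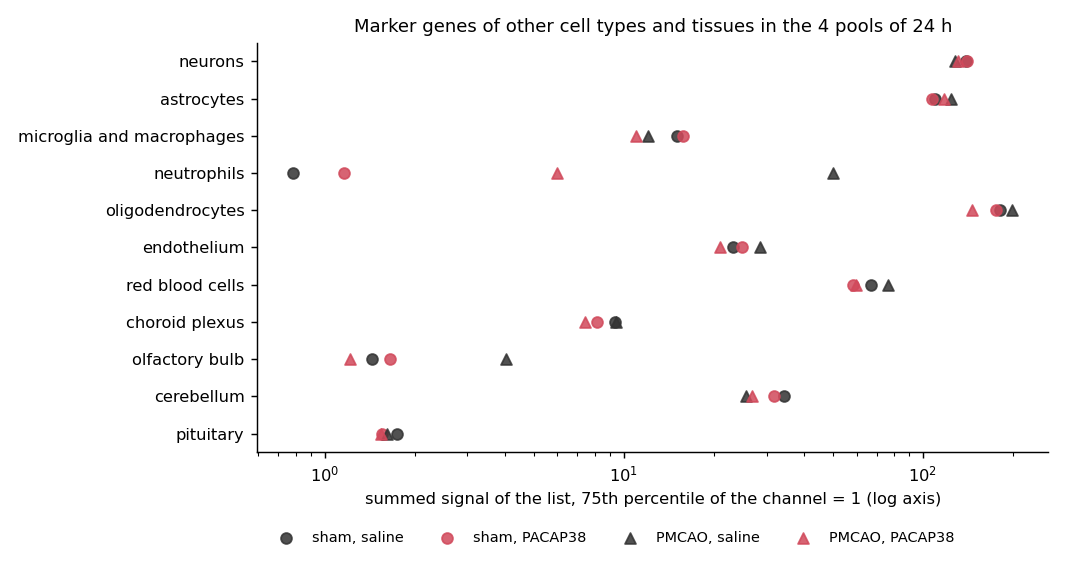
Summed signal of each marker list (x axis, log scale, 75th percentile of the channel = 1) in the 4 pools of 24 h, with sham as circles, PMCAO as triangles, saline in black and PACAP38 in red. The neutrophil list spreads widest, from 0.785 to 50.01, and the olfactory bulb list is high in PMCAO with saline, whereas the pools lie close for neurons and astrocytes.

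The other genes of the pathway are given by lists. At 24 h, 9.56% of all probes were above 1.5-fold and 13.3% below 0.75-fold in the saline pair. In the PACAP38 pair 6.39% and 8.19% were. Of 23 other Nrf2 target genes, 1 passed 1.5-fold in the saline pair at 24 h and their median log2 ratio was 0.08, and of 23 superoxide and peroxide enzymes 3 passed, with a median of 0.14. Both counts lie near the share over all probes. At 24 h limma passed 1 gene upward in each of these lists, *Osgin1*, an oxidative stress-induced growth inhibitor (1.94 ± 0.20), and *Txnip*, the inhibitor of thioredoxin (1.20 ± 0.12). Of 11 genes in the list of Nrf2 regulators, 5 passed 1.5-fold, with a median of 0.30. That list also holds the stress-response genes *Trib3* and *Atf4*. The gene passed by limma there was *Maff*, a small Maf partner of Nrf2, at 11.9-fold with saline and 6.97-fold with PACAP38. *Trib3*, a stress pseudokinase, was at 2.56-fold and 2.19-fold. *Txn1*, thioredoxin, was at 1.03-fold and 0.965-fold, and *Cat*, catalase, at 1.00-fold and 0.940-fold.

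Among 10 measured heme and iron partners of *Hmox1*, 4 were above 1.5-fold and 1 was below 0.75-fold in the saline pair. *Hp*, the haptoglobin that binds free hemoglobin, was at 13.4-fold with saline and 2.75-fold with PACAP38. *Slc40a1*, the iron exporter ferroportin, was at 0.588-fold and 0.515-fold and was the 1 gene of the list passed by limma, downward. Of 12 genes of zinc and metal handling, 1 was above 1.5-fold and 1 below 0.75-fold, with a median of -0.03, below the ratios of *Mt1* and *Mt2*. *Slc30a10*, a manganese exporter, was at 0.595-fold and 0.716-fold, and *Slc39a8*, an importer of zinc and manganese, at 0.873-fold and 0.801-fold.

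Of 10 measured sources of superoxide and nitric oxide, 8 passed 1.5-fold with saline and 3 with PACAP38. *Cyba* and *Ncf4*, subunits of the phagocyte NADPH oxidase, were at 2.24-fold and 3.02-fold with saline, and at 1.53-fold and 1.44-fold with PACAP38, but limma passed 0 of the 10 at 24 h. The 11 measured acute response genes were all above 1.5-fold in both pairs and all below 0.75-fold for PACAP38 over saline in PMCAO at 24 h, among them *Ccl4*, a chemokine (51.4-fold and 14.2-fold), and *Atf3*, a stress transcription factor (20.4-fold and 11.9-fold), the 2 with the largest mean over the 4 pairs. Limma passed 9 of these 11 upward at 24 h, with the limits on the 24 h test given above.

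**Figure D5:**
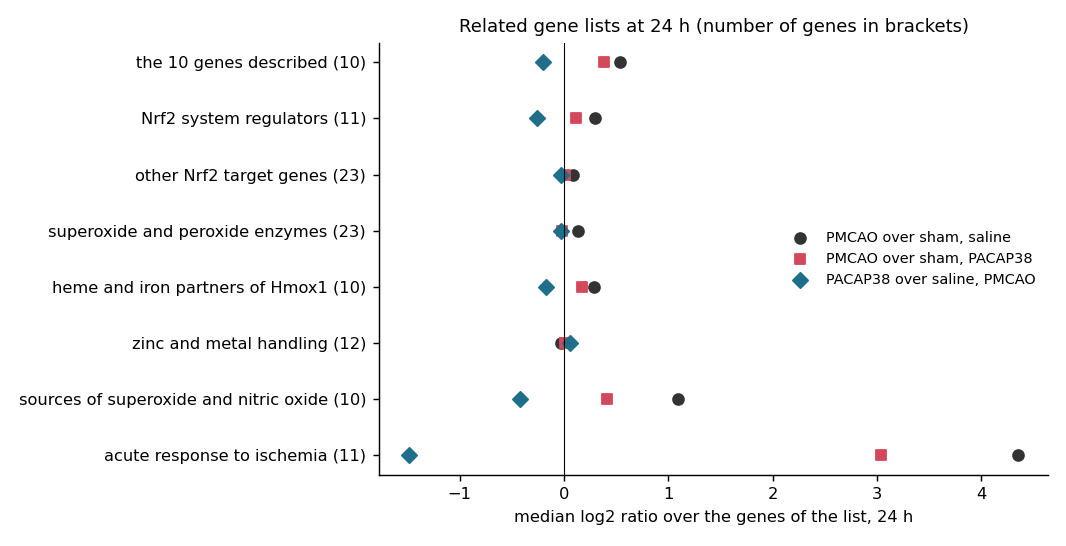
Median log2 ratio (x axis) over each gene list at 24 h for PMCAO over sham with saline (black circles), PMCAO over sham with PACAP38 (red squares) and PACAP38 over saline in PMCAO (blue diamonds). The 10 genes described have medians of 0.54, 0.38 and -0.20, beside 0.30, 0.11 and -0.26 for the Nrf2 regulators, 0.29, 0.18 and -0.17 for the heme and iron partners, and 4.35, 3.04 and -1.48 for the acute response genes.

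The genes whose levels ran most like *Hmox1* over the 8 pools, after each time's mean was taken out, were *Ifitm1*, *Socs3*, *Plaur*, *Il1r2* and *Ripk3* (Pearson r 0.996 to 0.999 among 12048 genes; pools on one array share its error). They were 2.75-fold to 18.9-fold in the saline pair and 1.90-fold to 6.37-fold in the PACAP38 pair at 24 h. For *Mt2* they were *Fstl1*, *Ehd4*, *Tm4sf1*, *Cnn3* and *Pxdc1* (r 0.985 to 0.992), at 1.503-fold to 3.28-fold with saline and 1.15-fold to 1.47-fold with PACAP38. With the 6 h pools taken from replicate 1 only, which was decided on with these data seen, those genes had r of 0.933 to 0.992 for *Hmox1* and of 0.849 to 0.987 for *Mt2*, and ranked 20 to 480 and 27 to 971 of 15015.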

How the data were processed

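The authors used Agilent 4x44K two-colour arrays, and what they deposited is scanner output read by Feature Extraction, version 9.5.3.1 in the submitters' processing notes, with an earlier version in the headers of the 6 h files. The deposited log10 ratio is Cy5 over Cy3 of the signals, background-subtracted, detrended and dye-normalized by that software. Intensity columns, as deposited, give the same processed signals, with spot means and local backgrounds, and deposited flags mark outlier and dim spots. A further table, deposited as a ratio of Cy5 over Cy3, on arrays with PACAP38 in Cy3 was deposited as a score, the ratio behind a minus sign. The build of the probes is not given in the sources used here.

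Each log ratio was put on the log2 scale, its sign changed where PACAP38 was in Cy3. PMCAO over sham was the difference of log2 processed signals in the same dye, each channel centred on its 75th percentile, so that pools on different arrays are compared. Outlier spots were left out, spots of a probe and then the 2 dye-swapped arrays were averaged, and a gene missing on 1 array kept the other's value. The labels number the arrays of a comparison as separate pools, but the methods give the same RNA for both, so they count as 1 replicate. Same-numbered arrays of one surgery pair share only their dye order.

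The 4 pool pairs were tested with limma 3.58.1 (R 4.3.3; Benjamini-Hochberg, 0.05; 3 residual degrees of freedom for a mean of 4, 2 by time or surgery), checked on simulated data. Single comparisons use 1.5-fold and 0.75-fold as in the study, without a test. The named genes were the 10 genes, in each list up to 4 genes passed by limma in the mean of 4 pairs or, as none was, up to 2 with the largest mean difference, and the 5 most alike to *Hmox1* and *Mt2*. The genes and lists were chosen with earlier results of these data known. The alternatives were normexp (offset 50) with loess and Aquantile, median or quantile scaling, all spots, only probes well above background, each array alone, the replicate block, a variance trend, each pair left out, all probes of a gene and the deposited table. Python 3.11.15, numpy 2.4.6, pandas 2.3.3 and matplotlib 3.10.9 were used. The 1 pool per group limits the precision, as the arrays of a pool measure technical error only.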

Additional observations from a re-analysis of the deposited data

Results flagged for a closer look

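Of the 10 genes, 3 differed between 24 h and 6 h in PMCAO over sham by limma's test of the difference itself, where 25.1% of all 40508 probes did, so the count is near the share over all probes. *Nqo1* was higher at 24 h by 0.99 (log2, limma adjusted p = 0.0212), *Gclm* by 1.29 (adjusted p = 0.0155), and *Mt3* was lower at 24 h, at -0.87 (adjusted p = 0.0392). Without the 6 h array that stood apart the values were 0.85 for *Nqo1* (limma adjusted p = 0.171) and 0.30 for *Gclm* (limma adjusted p = 0.564), while *Mt3* then had no value at 6 h. Time, slide and scanner cannot be told apart.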

How the results depend on the processing

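The number of the 10 genes passed by limma depended on the setting for PMCAO over sham. For the mean of 4 pairs it was 0, and 2 of 6 tested with the replicate block (1.63% of probes). For 24 h it was 2 (2.10% of probes), but 0 with quantile scaling (0.593%), 4 with normexp (6.38%), 4 of 6 with the replicate block (9.56%), 4 with the variance trend (4.58%), 0 to 1 on single arrays, and 0 with Cy3 channels only, with Cy5 channels only and without the sham array of 6 h that stood apart, 3 alternatives chosen after seeing the data. For 6 h it was 6 (42.5% of probes), but 0 on replicate 1 alone (0.256%), 7 of 7 on replicate 2 alone (60.6%), 0 with either dye only and 0 without that array. For 24 h minus 6 h it was 3 (25.1% of probes), but 6 with only probes well above background (42.4%), 6 with the variance trend (29.4%), 5 of 6 with the replicate block (36.9%), 0 with either dye only, 0 without that array, and 0 to 4 on single arrays. The adjusted p at 24 h ranged from 0.000765 to 0.764 for *Hmox1* and from 0.00247 to 1.0 for *Mt1*, with log2 differences of 2.59 to 2.72 and 1.13 to 1.24. At 6 h, *Gclm* turned to 0.0599 without that array (-1.91 to 0.0599 on single arrays), and *Sod2* to 0.0767 (-1.155 to 0.0767) and to 0.14 with quantile scaling. In single 6 h pairs, *Sod2* turned to 0.22 (saline) and 0.057 (PACAP38) with quantile scaling. On single arrays *Sod2* ranged from -1.113 to 0.17 (saline) and *Gclm* from -1.929 to 0.35 (PACAP38). PACAP38 over saline passed 0 genes under every alternative run.

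The median log2 ratio over the genes for PACAP38 over saline in sham at 6 h was 0.06, and 0.0282 with all spots, 0.11 with normexp and 0.0321 to 0.0624 on single arrays. Single arrays gave -0.0934 to 0.0512 in PMCAO at 6 h, and for PMCAO over sham -0.35 to 0.24 with saline and -0.69 to 0.37 with PACAP38 at 6 h, and 0.16 to 0.46 with PACAP38 at 24 h. The limits are the 1 pool per group and the signal of each probe over background on 2 arrays. The causes of these shifts were not tested.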
